A study of Mus musculus with 12 samples.

Results

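The genes examined here encode 8 surface proteins by which mouse hematopoietic stem and progenitor cells are recognized and sorted: *Slamf1* (CD150), *Cd48*, *Cd34*, *Esam*, *Ly6a* (Sca1), *Procr* (the endothelial protein C receptor, CD201), *Tek* (TIE2) and *Prom1* (prominin 1, CD133). They were taken as a named list and not by a rule on their values, though earlier results of these data were known. Each was represented by its probe set carrying that gene's symbol alone. Of the 8 genes, 7 were analysed, by 1 probe set each, among 19937 genes in all. *Ly6a* was not analysed here. Transcripts of 3 populations from mouse fetal liver at E14.5 were measured on Affymetrix Mouse Gene ST arrays, 4 arrays per population, each a biological replicate. HSPC (labelled HSC) were depleted of lineage-bearing cells on beads, sorted for Sca1 and used without culture. ERY (Erythroblasts) were taken from fetal liver on Ter119 beads, also without culture. MEG (Meg, Megakaryocytes) were grown from KIT-positive fetal liver progenitors, expanded in culture for 7 days, differentiated for 5 days and enriched on CD41 beads. The MEG cultures therefore did not start from the Sca1-sorted population that serves as their reference, and culture cannot be told apart from lineage. Whether replicates came from separate litters is not stated, so the tests measure the spread between these arrays.

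These proteins mark stem cells by combination rather than singly. CD150 and CD48 belong to the SLAM family of immunoglobulin-like receptors, and mouse long-term stem cells carry CD150 without CD48, whereas many restricted progenitors carry CD48. CD34 is a sialomucin of progenitors and endothelium, ESAM an adhesion molecule of endothelial junctions, stem cells and platelets, PROCR the receptor that presents protein C to thrombin, and TIE2 the receptor of the angiopoietins. Prominin 1 is a cholesterol-binding protein of membrane protrusions that is widely used to mark human progenitors. Several are therefore shared between stem cells and the vessel wall, and CD150 and ESAM are also found on megakaryocytes and platelets.

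The deposited values are log2 levels after RMA, so that a difference of 1 is a 2-fold change. Differences were tested between populations for the same gene and not between genes, since probe sets differ in brightness. The background limit given below and the means of gene lists do set unlike probe sets together, and are rough guides. A gene was called higher or lower when it differed more than 2-fold at an FDR under 5%, by limma with Benjamini-Hochberg adjustment over all 19937 genes. To show where array background lies, the 95th percentile of 1027 olfactory receptor genes, which blood cells do not use, was taken in each population: 5.64 in HSPC, 6.09 in MEG and 5.98 in ERY. By this limit 6 of the 7 measured members had a mean above background in HSPC (all but *Prom1*), 4 in MEG (*Slamf1*, *Cd34*, *Esam*, *Cd48*) and 3 in ERY (*Cd34*, *Esam*, *Tek*). The same held for 13091 of all 19937 genes in HSPC, 11045 in MEG and 11638 in ERY.

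The labels were set against marker lists. All 11 measured megakaryocyte genes were above background in MEG, and all 13 measured erythroid genes in ERY. As 10 of the 11 were also above it in HSPC and in ERY, and 12 of the 13 erythroid genes in HSPC and 8 in MEG, the populations were told apart by level. All 11 megakaryocyte genes were called higher in MEG than in HSPC and ERY, and all 13 erythroid genes higher in ERY than in HSPC and MEG. In HSPC, 12 of 13 stem and progenitor genes were above it, all but *Mecom*. Some genes listed for other cell types also passed this limit, as did most of all genes in each population. Of 15 endothelial genes, which bear on a list whose members vessels share, 14 were above background in HSPC, 10 in MEG and 12 in ERY, and the mean level of the list lay between 6.97 and 7.69 on the HSPC arrays, 6.67 and 6.78 on the MEG arrays and 6.67 and 7.01 on the ERY arrays. Among its genes, *Emcn* stood at 8.39 ± 0.48 (SD, n = 4) in HSPC and within background in MEG and ERY. *Sox17* was within background in all 3 populations. *Cdh5* was 7.28 ± 0.84 in HSPC, 5.28 ± 0.19 in MEG and 8.91 ± 0.42 in ERY (SD, n = 4). *Thbd* and *Plvap* had HSPC means of 7.08 and 6.65. The paper used *Cdh5*, *Thbd* and *Plvap* as its check for endothelial cells in HSPC and reports no significant contamination. Its measure was their low rank among expressed genes, not the background limit used here. Lymphoid genes, which bear on the SLAM receptors, were above background in HSPC for 10 of 13, in MEG for 2 and in ERY for 4, with list means of 6.37 to 6.68, 5.33 to 5.52 and 5.17 to 5.27. All 11 hepatocyte genes were above it in HSPC and ERY and 6 in MEG, with list means of 8.52 to 9.75, 10.03 to 10.70 and 6.15 to 6.40. The part of endothelial, lymphoid or hepatocyte RNA in the members' levels was not tested. In bulk RNA, fewer cells of a type and less RNA per cell cannot be told apart. The HSPC arrays also differed among themselves along 1 axis that held 92.7% of their variance over genes above background, with arrays 1 and 2 on one side and arrays 3 and 4 on the other.

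**Figure D1:**
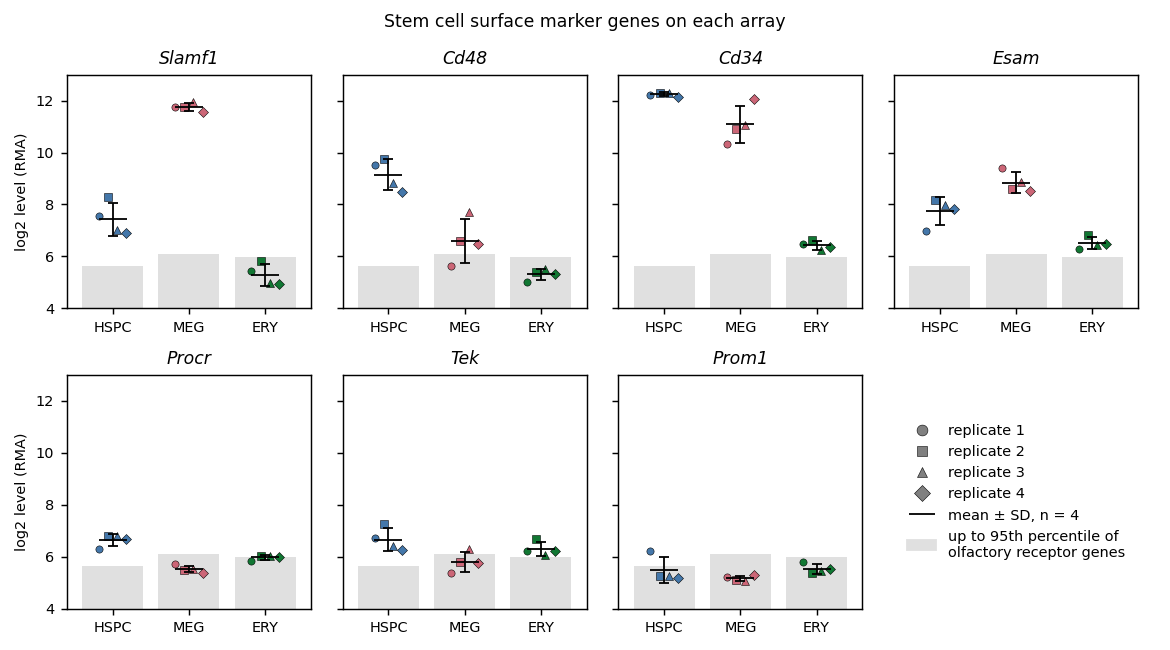
Log2 level of each measured member (panels) on the 4 arrays of HSPC, MEG and ERY (points, with symbols for replicates; bars, mean ± SD), with grey marking array background as defined by olfactory receptor genes. *Slamf1* stands at 11.56 to 11.93 in MEG, *Cd34* near 12 in HSPC, and *Procr*, *Tek* and *Prom1* close to the grey range throughout.

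Of the 7 members, 5 were called between MEG and HSPC, 2 higher (*Slamf1*, *Esam*) and 3 lower (*Cd48*, *Cd34*, *Procr*) in MEG. Over all genes, 20.2% were called in this comparison, 8.77% as higher and 11.4% as lower. The median difference of the members was -0.85, beside -0.02 for all genes. Between ERY and HSPC 4 members were called, all lower in ERY (*Cd34*, *Cd48*, *Slamf1*, *Esam*), where 20.6% of all genes were called, 8.35% as higher and 12.3% as lower. Their median difference was -1.23, beside 0.03 for all genes. MEG and ERY differed for the same 4 genes, all higher in MEG, where 16.5% of all genes were called, 8.75% as higher and 7.77% as lower. *Cd34* and *Cd48* were lower in both lineages than in HSPC, as were 6.36% of all genes. Arrays of the populations did not overlap for 5 of 7 members between MEG and HSPC, for 5 between ERY and HSPC and for 6 between MEG and ERY, whereas this held for 29.4%, 37.3% and 32.9% of all genes. MEG and ERY share the HSPC arrays as reference, so their differences from HSPC are not independent of each other.

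**Figure D2:**
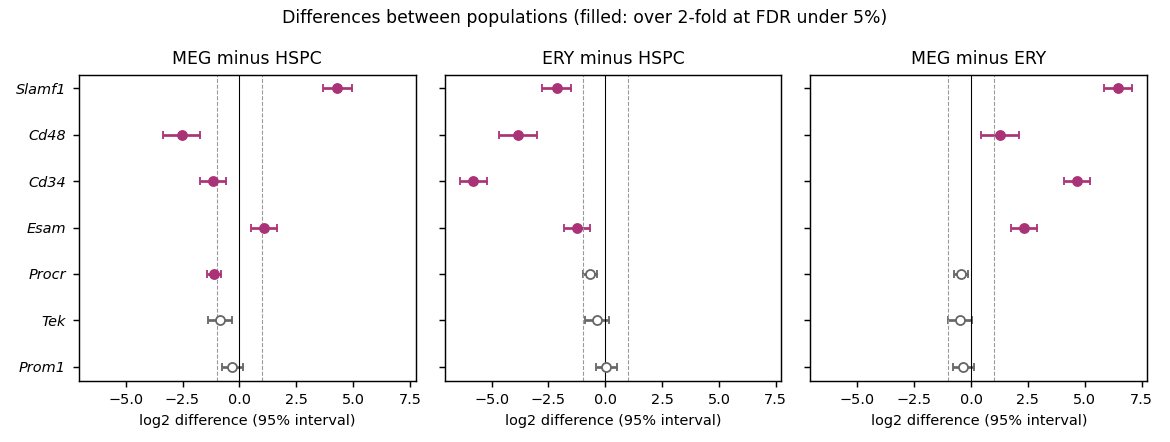
Log2 difference of each member between populations (points) with the 95% interval from limma (bars); filled points passed 2-fold at an FDR under 5%, and dashed lines mark 2-fold. *Slamf1* lies at 4.31 for MEG minus HSPC and -2.13 for ERY minus HSPC, while the points of *Tek* and *Prom1* are open in every comparison.

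*Slamf1* and *Cd48*, the pair that separates stem cells from restricted progenitors by SLAM receptors, moved in opposite directions in MEG. *Slamf1* was at 7.55, 8.28, 7.01 and 6.89 on HSPC arrays 1 to 4, at 11.74, 11.75, 11.93 and 11.56 on the MEG arrays and at 5.43, 5.84, 4.99 and 4.93 on the ERY arrays. No array of one population overlapped another, and the MEG arrays spread least (SD 0.15, n = 4). MEG exceeded HSPC by 4.31 (SE 0.29, 19.9-fold, adjusted p = 4.8e-07, limma), and ERY lay below HSPC by a log2 difference of -2.13 (SE 0.29, adjusted p = 9.5e-05). ERY levels were within background, so that the size of the latter difference rests on it. Between MEG and ERY the difference reached 6.45 (SE 0.29, adjusted p = 4.6e-09), the largest of any member in any comparison. Its size rests on the ERY background as well. Only 0.742% of all genes were called higher in MEG and lower in ERY than HSPC, as *Slamf1* and *Esam* were.

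*Cd48* encodes a GPI-anchored SLAM protein, the ligand of CD244 and CD2. Its levels were 9.54, 9.73, 8.82 and 8.46 on the HSPC arrays, 5.62, 6.59, 7.70 and 6.48 on the MEG arrays and 5.01, 5.40, 5.52 and 5.34 on the ERY arrays. Every HSPC array was above every MEG array, and every MEG array above every ERY array. The log2 difference was -2.54 (SE 0.38, 5.82-fold, adjusted p = 0.00027, limma) for MEG and -3.82 (SE 0.38, 14.2-fold, adjusted p = 8.4e-06) for ERY, the latter ending within background. MEG was above ERY by 1.28 (SE 0.38, adjusted p = 0.025), and this call depended on single arrays: the adjusted p was 0.051 without MEG replicate 2, 0.061 without MEG replicate 3 (difference 0.92), 0.073 without ERY replicate 1 and 0.054 without ERY replicate 4.

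The SD of *Cd48* over the MEG arrays, 0.85, was larger than that of 96.0% of genes above background, and genes of progenitors and myeloid cells differed between the same arrays. *Kit*, the stem cell factor receptor by which the cultures were started, was at 6.23, 7.12, 8.30 and 6.57 on MEG arrays 1 to 4. Myeloperoxidase (*Mpo*) was at 5.63, 8.01, 10.87 and 6.24, and carboxypeptidase A3 of mast cells (*Cpa3*) at 4.96, 7.71, 9.74 and 6.05. All of them, like *Cd48*, were highest on array 3 and lowest on array 1. The mean of 13 myeloid genes, 11 of which were above background in MEG, was 8.53 on array 3 and 6.27 to 6.94 on the other MEG arrays, and that of 13 macrophage genes, 10 above background in MEG, was 8.40 on array 3 and 6.82 to 7.68 on the others. Of 10 mast cell and basophil genes, 4 were above background in MEG (*Cpa3*, *Mcpt8*, *Hdc*, *Gzmb*). The others, among them the tryptases *Tpsb2* and *Tpsab1*, were not. The mean of the 10 was 6.21 on MEG array 3 and 4.91 to 5.64 on the other MEG arrays. The part of such cells in the *Cd48* level was not tested. Without MEG replicate 3 the difference from HSPC was -2.91, the largest among the fits without 1 array.

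**Figure D3:**
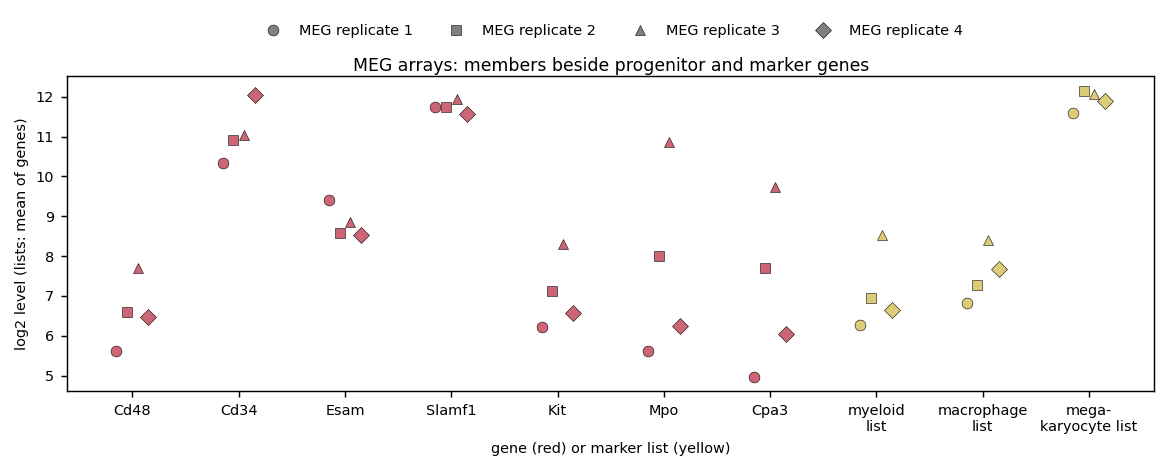
Log2 level on each of the 4 MEG arrays (symbols) of 4 members and of *Kit*, *Mpo* and *Cpa3* (red), and mean level of 3 marker lists (yellow). Replicate 3 is highest for *Cd48*, *Kit*, *Mpo*, *Cpa3* and the myeloid and macrophage lists, whereas *Slamf1* stays between 11.56 and 11.93 and *Cd34* is highest on replicate 4.

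*Slamf1* and *Cd48* lie in the SLAM cluster on chromosome 1, on the same strand. The start sites used here are 85140 bases apart in GRCm38.p6. Among genes listed as protein-coding, only *Tma7-ps*, not measured here, lies between *Slamf1* and *Cd48*. Other kinds of gene were not searched. Sequence is shown for this pair because close-lying genes of one family went opposite ways in MEG. The 250 bases before each start site, from RefSeq and written 5′ to 3′ on the plus strand, are those of chr1:171766882-171767131 (*Slamf1*) and chr1:171681742-171681991 (*Cd48*), with matches to the searched motifs in capitals. The *Cd48* gene is annotated from base 171681245. Its window therefore lies inside the annotated gene, before a later start site, and the distance given above depends on that choice.
Slamf1: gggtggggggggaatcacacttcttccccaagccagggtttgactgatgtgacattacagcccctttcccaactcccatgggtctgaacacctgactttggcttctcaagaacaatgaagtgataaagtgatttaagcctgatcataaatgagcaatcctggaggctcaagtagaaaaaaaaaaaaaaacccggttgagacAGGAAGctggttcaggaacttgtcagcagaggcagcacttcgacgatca
Cd48: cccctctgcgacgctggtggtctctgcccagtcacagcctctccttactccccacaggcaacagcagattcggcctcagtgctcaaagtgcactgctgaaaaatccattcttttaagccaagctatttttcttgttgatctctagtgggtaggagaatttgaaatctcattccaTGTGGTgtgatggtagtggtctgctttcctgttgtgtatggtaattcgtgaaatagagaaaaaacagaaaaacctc
The letters searched on both strands were AGATAA for GATA factors, AGGAAG and CGGAAG for ETS factors and TGTGGT for RUNX factors. None of these words contains another. These families are among those the study follows, and its E-box (TAL1) and KLF1 motifs were not searched. The *Slamf1* window holds 1 match, AGGAAG, which 29.5% of 32851 promoter windows of this length hold. The *Cd48* window holds 1 match, TGTGGT, found in 14% of windows. Neither holds AGATAA, present in 10.0%, or CGGAAG, present in 13.6%. A match is a description of letters and not of a bound site.

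The other genes of the cluster did not follow a single direction. Of the 7 SLAM genes of the cluster (*Cd244a*, *Ly9*, *Slamf7*, *Cd48*, *Slamf1*, *Cd84*, *Slamf6*), 3 rose and 2 fell in MEG against HSPC. *Slamf1* and *Cd48* are themselves in these counts. *Cd84*, the neighbour of *Slamf1* on its other side and like CD150 a receptor that binds itself, rose by 3.17 (SE 0.24, adjusted p = 1.5e-06, limma). *Cd244a*, the receptor of CD48, rose by 1.17 (SE 0.16, adjusted p = 0.00016), so that in MEG receptor and ligand changed in opposite directions. *Ly9*, on the side of *Cd48*, had a log2 difference of -1.30 (SE 0.36, adjusted p = 0.014). In ERY none of the 7 was higher and 4 were lower than in HSPC: *Cd48*, *Ly9* (-2.30), *Slamf1* and *Cd244a* (-1.22). *Slamf6* and *Slamf7* were not called in either lineage. Of 13 SLAM receptors, ligands and signalling partners other than *Slamf1* and *Cd48*, 4 were higher and 1 lower in MEG, and 4 were lower and 0 higher in ERY. Only 7 of the 13 were above background in at least 1 population. Over all genes, 8.77% were higher and 11.4% lower in MEG, and 8.35% higher and 12.3% lower in ERY. Among the partners, the phosphatase *Ptpn11* (SHP2) rose by 2.16 and the kinase *Fyn* by 1.49 in MEG, and the phosphatase *Inpp5d* (SHIP1) fell by 2.64 on the log2 scale in ERY.

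**Figure D4:**
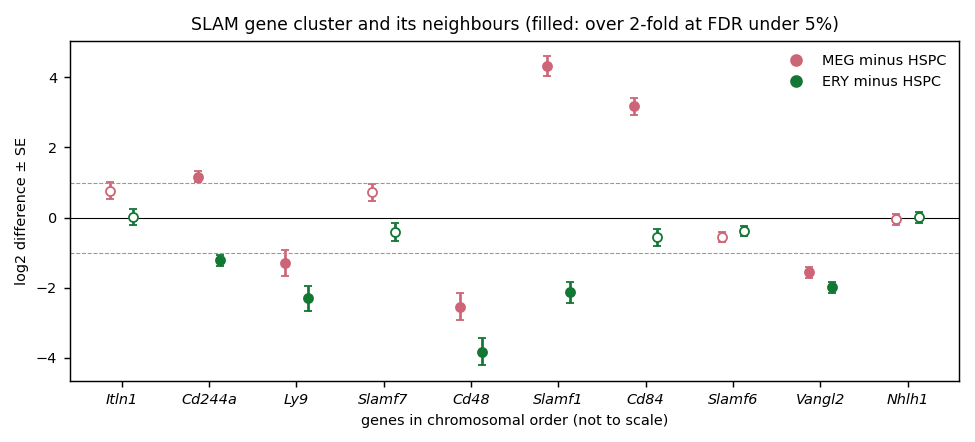
Log2 difference from HSPC in MEG and ERY (points, with SE) of genes in and beside the SLAM cluster in chromosomal order, not to scale; filled points passed 2-fold at an FDR under 5%. *Slamf1* (4.31) and *Cd84* (3.17) stand above 0 in MEG next to *Cd48* (-2.54), and no filled point lies above 0 in ERY.

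*Cd34* separated ERY from the other populations. Its levels were 12.21, 12.30, 12.29 and 12.15 on the HSPC arrays, where its SD of 0.07 was lower than that of all but 2.02% of genes above background. They were 10.34, 10.91, 11.05 and 12.04 on the MEG arrays and 6.46, 6.65, 6.27 and 6.35 on the ERY arrays. The populations did not overlap, although MEG array 4 came close to the lowest HSPC array, and the MEG mean was 11.09. ERY fell by 5.81 on the log2 scale (SE 0.27, 56.0-fold, adjusted p = 1.1e-08, limma) to 6.43 ± 0.16 (SD, n = 4), just above background. The fall in MEG was 1.15 (log2 difference -1.15, SE 0.27, 2.23-fold, adjusted p = 0.0054), close to the threshold: without MEG replicate 1 it was -0.91 (adjusted p = 0.011), under 2-fold. It was -0.71 (adjusted p = 0.037) with arrays aligned by their ribosomal protein genes, under which the median difference of all genes between MEG and HSPC became 0.42. MEG stood above ERY by 4.65 (SE 0.27, adjusted p = 4.8e-08). The 250 bases before the start site of *Cd34*, the member with the largest fall, are those of chr1:194938571-194938820 (GRCm38.p6, plus strand, 5′ to 3′, from RefSeq), in which the same search found 1 match, the reverse complement of AGGAAG, in capitals.
Cd34: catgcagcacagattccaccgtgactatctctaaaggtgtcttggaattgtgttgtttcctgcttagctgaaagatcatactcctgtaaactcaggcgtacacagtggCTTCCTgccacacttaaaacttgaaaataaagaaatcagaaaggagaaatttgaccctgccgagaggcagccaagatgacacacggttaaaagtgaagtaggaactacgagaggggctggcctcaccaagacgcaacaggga

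Of 6 measured genes of a list of sialomucins, the selectins that bind CD34 and an adaptor of CD34, 1 was higher and 1 lower in MEG and 1 was lower in ERY. Of all genes, 20.2% were called between MEG and HSPC and 20.6% between ERY and HSPC. Podocalyxin (*Podxl*), the closest relative of CD34 in structure, was higher in MEG by 1.63 (SE 0.49, adjusted p = 0.022, limma), with MEG arrays between 8.27 and 10.99 that overlapped those of HSPC, and was not called in ERY (0.28). Endomucin (*Emcn*) was lower in both, the directions of *Cd34*, by log2 differences of -3.45 and -3.08 that rest on levels within background in MEG and ERY.

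*Esam* followed the directions of *Slamf1* at a smaller size. Its levels were 6.98, 8.19, 7.98 and 7.83 in HSPC, 9.40, 8.59, 8.86 and 8.52 in MEG and 6.30, 6.83, 6.43 and 6.48 in ERY. The populations did not overlap, with HSPC array 1 the lowest of its group and MEG array 1 the highest. MEG was higher than HSPC by 1.10 (SE 0.26, adjusted p = 0.0060, limma), a call that was under 2-fold without HSPC replicate 1 (0.84), without MEG replicate 1 (0.91), without HSPC arrays 1 and 2 (0.94, a fit chosen after seeing the data) and with array weights (0.65). ERY was lower by a log2 difference of -1.23 (SE 0.26, adjusted p = 0.0028), but by -0.87 with centring on ribosomal protein genes and -0.98 with centring on the median of genes above background, both under 2-fold. The difference between MEG and ERY was 2.33 (SE 0.26, 5.03-fold, adjusted p = 2.1e-05). Of 10 measured genes of the JAM family and endothelial junctions, 4 were higher and 2 lower in MEG, beside 8.77% and 11.4% of all genes. JAM-A (*F11r*), a platelet adhesion protein, rose by 4.35 in MEG, the scaffold protein ZO-1 (*Tjp1*) by 2.90 from a level within background in HSPC, and CD31 (*Pecam1*) by 2.16, whereas VE-cadherin (*Cdh5*) was lower, at background. In ERY 2 were higher and 2 lower, among them *Cdh5* (1.63) and *Pecam1* (-2.05), beside 8.35% and 12.3% of all genes.

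*Procr* was low in all populations and highest in HSPC. It stood at 6.29, 6.78, 6.82 and 6.67 on the HSPC arrays, at 5.70, 5.51, 5.53 and 5.38 on the MEG arrays and at 5.84, 6.02, 6.04 and 5.98 on the ERY arrays. The HSPC arrays did not overlap either lineage, and the MEG and ERY means were within background, that of ERY (5.97) at its very edge. The log2 difference was -1.11 in MEG (SE 0.14, adjusted p = 6.6e-05, limma), and -0.67 with centring on ribosomal protein genes, under 2-fold. In ERY it was -0.67 (SE 0.14, adjusted p = 0.0021, 95% interval -0.97 to -0.37), under 2-fold and not called. MEG lay below ERY by a log2 difference of -0.44 (SE 0.14, adjusted p = 0.030), also under 2-fold and within background on both sides. Of 11 measured genes of the protein C pathway other than *Procr*, 4 were higher and 1 lower in MEG, and 2 were higher and 3 lower in ERY. The shares of all genes higher and lower were 8.77% and 11.4% in MEG and 8.35% and 12.3% in ERY. The cofactor protein S (*Pros1*) rose by 4.03, coagulation factor V (*F5*) by 4.09 and the thrombin receptors *F2rl2* (PAR3) and *F2r* (PAR1) by 3.91 and 3.29 in MEG. Prothrombin (*F2*, 2.17) and protein C (*Proc*, 1.17), both made by hepatocytes, rose in ERY, where 7 of 11 hepatocyte genes were higher than in HSPC. The part of hepatocyte RNA in the levels of *F2* and *Proc* was not tested. Thrombomodulin (*Thbd*), which binds the thrombin that activates protein C, was not called in MEG (-0.44) and was lower in ERY (-1.27), where it was within background.

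*Tek* and *Prom1* were not called in any comparison. *Tek* was at 6.71, 7.24, 6.40 and 6.25 in HSPC, at 5.36, 5.79, 6.29 and 5.77 in MEG and at 6.21, 6.68, 6.09 and 6.21 in ERY, and the ranges of all 3 populations overlapped. Its difference between MEG and HSPC was -0.85 (SE 0.24, 95% interval -1.37 to -0.32, adjusted p = 0.016, limma), past the FDR and under 2-fold. It passed 2-fold without MEG replicate 3 (-1.01) and without HSPC arrays 3 and 4 (-1.17, chosen after seeing the data). It missed the FDR with ribosomal centring (-0.40, adjusted p = 0.14) and without HSPC arrays 1 and 2 (-0.52, adjusted p = 0.11, also chosen after seeing the data). The intervals were -0.88 to 0.17 for ERY minus HSPC and -1.02 to 0.03 for MEG minus ERY, which leave room for differences of up to about that size. Its ligand *Angpt1* was higher in MEG than in HSPC by 2.73 (SE 0.48, adjusted p = 0.00079) and lower in ERY by a log2 difference of -2.74, with ERY within background. The second TIE receptor, *Tie1*, was not called in MEG (-0.14) and was lower in ERY (-2.31). Of 10 genes of TIE receptors, angiopoietins and their signalling partners, 2 were higher and 0 lower in MEG and 1 was higher and 3 were lower in ERY. Among all genes, 20.2% were called in MEG and 20.6% in ERY, so the count in MEG is near the share of all genes. *Angpt2* was within background in every population.

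*Prom1* was within background in all 3 populations by its means. It read 6.23, 5.26, 5.25 and 5.17 in HSPC, 5.24, 5.12, 5.06 and 5.28 in MEG and 5.79, 5.36, 5.44 and 5.52 in ERY, so that HSPC array 1 was the only array of the 12 above its limit. The 95% intervals were -0.77 to 0.15 for MEG minus HSPC, -0.41 to 0.51 for ERY minus HSPC and -0.82 to 0.10 for MEG minus ERY. A change of 2-fold lies outside all of them, within what values at background can show. The MEG and ERY arrays did not overlap, yet the difference of -0.36 was not called (adjusted p = 0.28). Its relative *Prom2* was called in no comparison either.

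Other surface proteins used to sort these cells were mostly lower in ERY and divided in MEG. Of 16 measured, 13 were lower and 1 higher in ERY than in HSPC, beside 12.3% and 8.35% of all genes. *Cd27* (log2 difference -4.83), *Flt3* (-4.21), *Kit* (-3.93) and *Cxcr4* (-3.60) were among those that fell, with *Cd27* and *Flt3* within background in ERY. The one that rose (2.66) was the adhesion receptor *Vcam1*, a gene of fetal liver macrophages as well. *Vcam1* is itself in the list of 13 macrophage genes, of which 8 were higher in ERY. The part of macrophage RNA in its rise was not tested. In MEG 4 were higher and 5 lower, beside 8.77% and 11.4% of all genes. The integrin subunits *Itga2b* (3.72; CD41, on which MEG were selected) and *Itga6* (3.63), the tetraspanin *Cd9* (3.59) and the hyaluronan receptor *Cd44* (1.28) rose. *Flt3* (-4.42), *Cd27* (-4.33), *Kit* (-3.47) and endoglin (*Eng*, -1.09) fell, and *Thy1* just past 2-fold. The MEG levels of *Flt3*, *Cd27* and *Thy1* were within background, on which the sizes of their differences rest. Between MEG and ERY 9 were higher and 1 lower in MEG, beside 8.75% and 7.77% of all genes. Of the LY6 family, in which *Ly6a* lies, 12 other genes were measured: *Ly6e* was lower in MEG (-1.26) and ERY (-2.12), and *Ly6d* as well (-1.40 and -1.29), while *Ly6g6c* (3.88) and *Ly6g6d* (1.43) were higher in MEG. *Ly6d* was within background in MEG, and *Ly6g6d* in HSPC. LY6 genes share sequence, and probes may not tell close relatives apart.

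Genes whose levels ran most alike to the members over the 12 arrays were looked up among 13443 genes above background in at least 1 population. These correlations are descriptions over arrays of 3 populations, and most of each r comes from the differences between populations. The genes nearest to *Slamf1* were the calpain *Capn2* (r = 0.997), the kinase *Prkcq* (0.996) and the thrombin receptor *F2rl2* (0.995). Nearest to *Cd34* were *Plcb2* (0.989), *Adgrg3* (0.987) and *Cst7* (0.985), and nearest to *Cd48* *Elmo1* (0.991), *Tespa1* (0.988) and *Rassf5* (0.986). *Esam* ran closest to *Dhrs3* (0.974), *Mink1* (0.971) and *Madd* (0.965), and *Procr* to *H2az2* (0.979), *Rcn3* (0.976) and *Lancl1* (0.974). The low *Tek* and *Prom1* had weaker partners, *Nubpl* (0.914), *Rnase6* (0.906) and *Sh3bp5* (0.886) for the former and *Mgam* (0.943), *Kif21a* (0.926) and *Rfx3* (0.890) for the latter. Among the members themselves, *Esam* and *Slamf1* were the most alike (r = 0.92), and *Slamf1* and *Cd48* had r = 0.16.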

How the data were processed

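Log2 values of 12 arrays were analysed (4 each of HSPC, MEG and ERY, grouped by sample title). The authors deposited log2 values summarized by RMA (version not given in the sources used here), 1 for each probe set; array medians lie between 5.99 and 6.25. RMA equalizes array distributions, so differences are relative to all genes, and precision is limited by the number of arrays. Of 34760 probe sets, 21640 carry 1 gene symbol in the platform annotation and gave 19937 genes, each by its probe set of highest mean over all arrays. Probe sets with several symbols (1321) or outside the annotation (11799) were left out. No values were filtered. A linear model with a mean per population (limma 3.58.1, R 4.3.3) was adjusted by Benjamini-Hochberg over all genes and checked on simulated data. The members and gene lists were chosen with earlier results of these data known. Within each list the genes to name were up to 4 with the largest differences, and for each member the 3 genes of highest r. Further list, marker and neighbouring genes were named after their values were seen. Promoters came from RefSeq (GRCm38.p6), which listed 6 of the 8 members. Replicate numbers were not taken as pairs: of 12 same-numbered pairs, 5 correlated above 0.1. Alternatives covered the arrays fitted, the replicate block, filters on low values, normalization, variance and thresholds. Tables and figures used Python 3.11.15, pandas 2.3.3, numpy 2.4.6 and matplotlib 3.10.9.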

Additional observations from a re-analysis of the deposited data

Results flagged for a closer look

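*Prom1* on HSPC array 1 stood at 6.23, while the other 3 HSPC arrays lay between 5.17 and 5.26. This is the one sample that stood apart from its group by Dixon's test among 21 groups of 4 arrays (7 genes in 3 populations), where chance sets apart about 1 in 20 groups. Its gap to the next array was 0.92 of the range of the group.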

How the results depend on the processing

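Every call was recomputed under 28 alternatives, which gave 582 values for single genes and comparisons, of which 552 kept direction and call. The calls of *Slamf1* in all 3 comparisons, of *Cd34* and *Cd48* in ERY, of *Cd34* and *Esam* between MEG and ERY and of *Cd48* between MEG and HSPC held in all of them. The count of 2 members higher in MEG than in HSPC became 1 (*Slamf1*) with array weights, with a test against 2-fold (treat) and, chosen after seeing the data, without HSPC arrays 1 and 2, and was 1 to 2 when single arrays were left out. The count of 3 lower in MEG became 1 (*Cd48*) with treat and with centring on ribosomal protein genes, and was 2 to 4 without single arrays. Without single arrays, 3 to 4 members were higher in MEG than in ERY, and 4 were lower in ERY than in HSPC throughout. With the replicate number as a block, the counts were 2 higher and 3 lower in MEG and 4 lower in ERY, and no call of a member changed. Centring on ribosomal protein genes moved the median of all genes to 0.42 in MEG and 0.39 in ERY, and the share of higher among all calls from 43.5% to 75.1% in MEG and from 40.5% to 63.6% in ERY. It turned the uncalled differences of *Prom1* in MEG (0.14) and *Tek* in ERY (0.0085). *Prom1* in ERY, between -0.052 and 0.30 without single arrays, was below 0 without HSPC replicate 2, 3 or 4 or ERY replicate 1 (-0.052 to -0.023), and to -0.22 without HSPC arrays 3 and 4. The cause was not tested. Values near background, as for *Procr*, *Tek* and *Prom1*, understate differences.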
